A study of Mus musculus with 2 samples.

Results

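The genes described here are 9 that mark the duct cells of the pancreas: the keratins Krt7, Krt8, Krt18 and Krt19, the mucin gene Muc1, Spp1 (osteopontin), Cftr (a chloride channel), Car2 (a carbonic anhydrase) and Prom1 (prominin 1). They were taken by symbol, and all 9 had a row among the 23284 gene symbols of both count files. RNA-seq was done on GFP-positive cells sorted from whole pancreata of NGN3-EGFP mouse embryos of mixed, C57BL6 strain at e15.5, which the series' title calls endocrine progenitors. The only group held 2 libraries, replicates 1 and 2, with 12495143 and 12043734 counted reads. The labels name neither the construction of the reporter nor the number of embryos pooled, and nothing in them says that the libraries came from separate litters. With 1 group there was no condition to compare, and the spread between the libraries may be technical.

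Keratins are the intermediate filaments of epithelial cells, and each filament is built from pairs of a type I and a type II chain. Krt8 (type II) and Krt18 (type I) form the basic pair of simple epithelia, and Krt7 (type II) and Krt19 (type I) are added in ducts. In the embryonic pancreas, endocrine progenitors arise from an epithelium of cords that also gives rise to the ducts, and they switch on Neurog3 as they leave it. Muc1 and Prom1 lie on the apical surface that faces the lumen, Spp1 is a secreted glycoprotein, and Cftr and Car2 serve bicarbonate secretion in mature ducts.

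Of the 9 genes, 7 reached a normalised read count of 1 CPM (library-scaled counts) in both libraries: all 4 keratins, Muc1, Spp1 and Prom1. Cftr and Car2 did not. Over all genes in the files 45.7% reached this level. Since the 9 genes were chosen with earlier results of these data known, that share is given as background only. Summed over the 9 genes, replicate 1 was at 906.7 CPM and replicate 2 at 906.8 CPM, or 0.0903% and 0.0911% of all reads. The sum was thus nearly equal in both libraries, while single genes differed in opposite directions. In pooled sorted cells, fewer cells of a type and less RNA per cell cannot be told apart.

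The bases before the start sites of 4 of these genes are shown here for comparison with their levels. Krt8 and Krt18 lie next to each other on chromosome 15 with no other protein-coding gene between them and were transcribed from opposite strands. Krt7 lies elsewhere on that chromosome, and Cftr is the gene with the fewest reads. The sequences are the 250 bases before the start in RefSeq's annotation of GRCm38.p6, not mm9, the build in the submitters' processing notes. Each runs 5′ to 3′ in the direction of its gene, at chr15:101412153-101412402 (plus strand) for Krt7, chr15:102004343-102004592 (minus strand) for Krt8, chr15:102027966-102028215 (plus strand) for Krt18 and chr6:18170437-18170686 (plus strand) for Cftr. Capitals mark 3 motifs on either strand: the GC box GGGCGG, the CCAAT box and the TATA box TATAAA.
Krt7: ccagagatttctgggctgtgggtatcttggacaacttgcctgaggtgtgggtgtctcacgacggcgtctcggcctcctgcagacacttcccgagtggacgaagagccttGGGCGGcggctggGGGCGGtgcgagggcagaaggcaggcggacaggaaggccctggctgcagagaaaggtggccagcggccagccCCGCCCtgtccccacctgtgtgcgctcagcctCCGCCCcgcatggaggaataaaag
Krt8: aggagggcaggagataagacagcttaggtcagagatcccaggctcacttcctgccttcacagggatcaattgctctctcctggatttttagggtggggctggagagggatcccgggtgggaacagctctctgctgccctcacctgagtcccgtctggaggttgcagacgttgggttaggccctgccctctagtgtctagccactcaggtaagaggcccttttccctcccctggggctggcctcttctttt
Krt18: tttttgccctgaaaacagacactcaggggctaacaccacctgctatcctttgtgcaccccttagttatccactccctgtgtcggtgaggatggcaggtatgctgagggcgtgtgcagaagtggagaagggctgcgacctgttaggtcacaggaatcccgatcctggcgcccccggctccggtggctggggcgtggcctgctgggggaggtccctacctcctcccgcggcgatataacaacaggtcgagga
Cftr: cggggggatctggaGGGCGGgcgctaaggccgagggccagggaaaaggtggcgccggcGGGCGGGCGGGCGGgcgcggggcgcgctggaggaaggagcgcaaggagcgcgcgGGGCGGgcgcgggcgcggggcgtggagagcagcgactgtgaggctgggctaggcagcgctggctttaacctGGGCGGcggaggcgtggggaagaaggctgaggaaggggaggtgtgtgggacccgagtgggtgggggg

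The GC box GGGCGG was found 4 times before Krt7 and 6 times before Cftr, where 3 of the copies overlapped one another. Neither Krt8 nor Krt18 held any of the 3 motifs in this window. Of 32851 promoter windows of the same length, 32.7% held GGGCGG on either strand, 33.8% held CCAAT and 12.4% held TATAAA. GC content was 66.0% for Krt7, 58.0% for Krt8, 60.4% for Krt18 and 76.4% for Cftr, against a median of 52.4% over all windows. Of the 9 genes 7 had a promoter window, and Krt19 and Car2 had none. Among the genes whose windows are not shown, Muc1 was at 54.8% GC. Prom1 was at 50.8% and 59.2% and Spp1 at 43.6% and 35.6% over their windows. Muc1 held all 3 motifs. A window of Spp1 held TATAAA and CCAAT, and a window of Prom1 held GGGCGG and CCAAT. These matches describe the letters of the windows only.

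**Figure D1:**
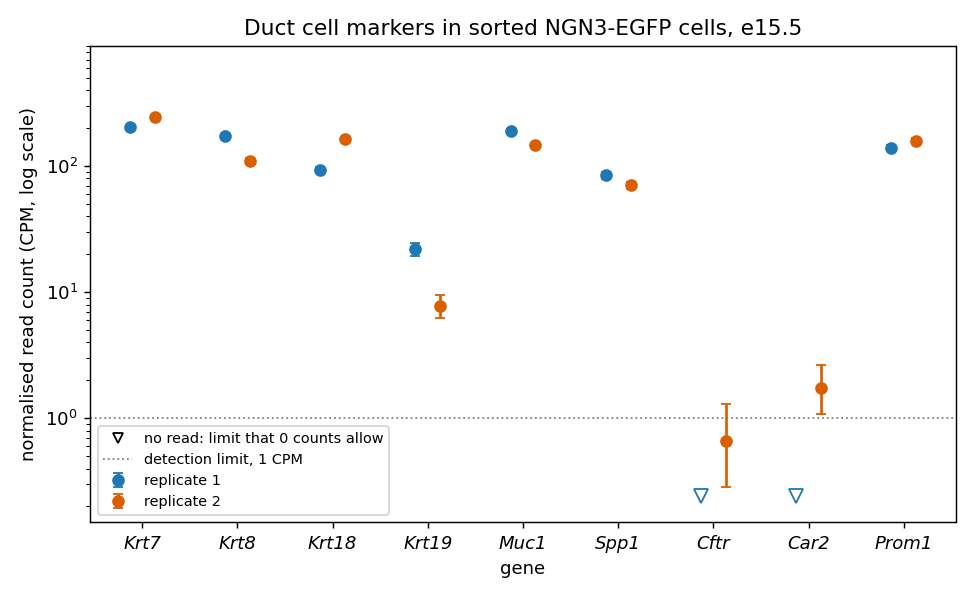
Normalised read counts (CPM, log scale) of the 9 duct markers in replicate 1 (blue) and replicate 2 (orange), with exact 95% intervals for counting error. Open triangles mark genes with no read, drawn at the level that 0 counts allow. Krt7, Krt8, Krt18, Muc1, Spp1 and Prom1 lay above 70 CPM in both libraries, Krt19 at 21.9 and 7.77 CPM, and Cftr and Car2 had no read in replicate 1.

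Among the type II keratins, Krt7 had 2533 reads in replicate 1 and 2975 in replicate 2, which is 203.6 and 246 CPM. Krt8 had 2167 and 1339 reads, or 174 and 111 CPM. Krt7 was thus higher in replicate 2 and Krt8 higher in replicate 1. Among the type I keratins, Krt18 had 1156 and 1982 reads, or 92.9 and 164 CPM. Krt19 had 273 and 94 reads, or 21.9 CPM (exact Clopper-Pearson 95% interval 19.4 to 24.7) and 7.77 CPM (6.28 to 9.51). Krt18 was higher in replicate 2 and Krt19 in replicate 1, so each type held 1 gene on each side. Summed, the 4 keratins reached 493 and 528 CPM.

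Krt8 and Krt18, whose proteins pair with each other, ran in opposite directions. Krt8 reads were 1.87 times Krt18 reads in replicate 1 and 0.676 times in replicate 2. This ratio does not depend on how the libraries are scaled, and it was 2.77-fold higher in replicate 1. Krt8 alone was 1.57-fold higher in replicate 1 and Krt18 alone 1.76-fold higher in replicate 2. The Krt8 count carries a limit of its own, because 34.6% of its 25-base words also occur in the processed pseudogene Krt8-ps, and 60.3% occur in no other gene. For Krt18 81.7% occur in no other gene, and the words shared most were in processed pseudogenes. None of these pseudogenes has a row under its GENCODE symbol, and how the authors counted reads with several matches is not given. For Krt19 96.6% of the words were found in no other gene, and no single other gene shared more than 1.1% of the words of Krt7.

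Muc1, Prom1 and Spp1 each differed by less between the libraries than Krt8, Krt18 and Krt19 did, but not all by less than the keratin Krt7, at 1.21-fold. Muc1, a membrane mucin, had 2350 and 1772 reads in replicates 1 and 2, which is 189 and 146 CPM. Prom1, a pentaspan protein of membrane protrusions, had 1749 and 1926 reads, or 141 and 159 CPM. Spp1, whose protein binds integrins and CD44, had 1052 and 853 reads, or 84.6 and 70.5 CPM. Muc1 and Spp1 were higher in replicate 1 and Prom1 in replicate 2, by 1.29-fold for Muc1, 1.2-fold for Spp1 and 1.13-fold for Prom1. The Spp1 count carries a limit as well, because 15.8% of its words also occur in the gene Gm42793, and 84.0% occur in no other gene. For Prom1 7.2% of the words lie in the overlapping antisense gene Gm16401. Without a stated strand setting, reads of Gm16401 cannot be told apart from those of Prom1.

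Car2 and Cftr, which serve bicarbonate secretion in mature ducts, were at the edge of detection. Car2, a cytosolic carbonic anhydrase, had 0 reads in replicate 1 and 21 in replicate 2, which is 1.74 CPM (exact Clopper-Pearson 95% interval 1.07 to 2.65). A count of 0 allows up to 3 counts, or 0.241 CPM in replicate 1, and against that limit the value in replicate 2 was at least 7.2-fold higher, with the counting error of the 21 reads left aside. Cftr, the apical anion channel of ducts, had 0 reads in replicate 1 and 8 in replicate 2, which is 0.661 CPM (0.286 to 1.3). Car2 thus passed 1 CPM in replicate 2 only, and Cftr in neither library. Absence of either transcript from the cells cannot be read from these counts. Cftr has an overlapping antisense gene, Gm15592, which shares 1.5% of its words.

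Compared per kb of exon, Krt18, Muc1 and Krt8 had the highest mean levels and Krt19 the lowest of the 7 detected markers. Krt18 was at 89.3 ± 34.9 CPM per kb, Muc1 at 74.8 ± 13.4, Krt8 at 72.7 ± 22.9, Krt7 at 54.9 ± 7.31 and Spp1 at 47.1 ± 6.03 CPM per kb (SD, n = 2 each). The ranges of Krt18, Muc1 and Krt8 over the 2 libraries overlapped one another. Krt7 lay below Krt18 and Muc1 in both libraries but overlapped Krt8 and Spp1, and Spp1 lay below Krt18, Muc1 and Krt8. Prom1 followed at 30.8 ± 2.70 CPM per kb and Krt19 at 9.43 ± 6.36 CPM per kb (SD, n = 2 each), and the ranges of Spp1, Prom1 and Krt19 did not overlap. An exact test over 2 libraries cannot reach a p under 0.5, so the order is descriptive. Among the 22804 genes with an exon length, Krt18 ranked 536th by mean CPM per kb, Muc1 701st, Krt8 721st, Krt7 1051st, Spp1 1304th, Prom1 2143rd and Krt19 5963rd. Car2 and Cftr ranked 12231st and 14100th.

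The place of Krt7 depended on the length used. Its exon length in GENCODE's basic set was 4094 bases against a coding length of 1371 bases, whereas Krt18 had 1437 and 1269 bases. Per kb of coding sequence, a scale chosen after the data were seen, Krt7 led with 149 and 179 CPM per kb in replicates 1 and 2 and lay apart from Krt18 at 73.2 and 129 CPM per kb. On that scale the ranges of Krt18, Krt8, Muc1 and Spp1 overlapped one another, and Prom1 and Krt19 lay below them. The annotation behind the deposited counts is not given, so the length that fits Krt7 is not known.

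**Figure D2:**
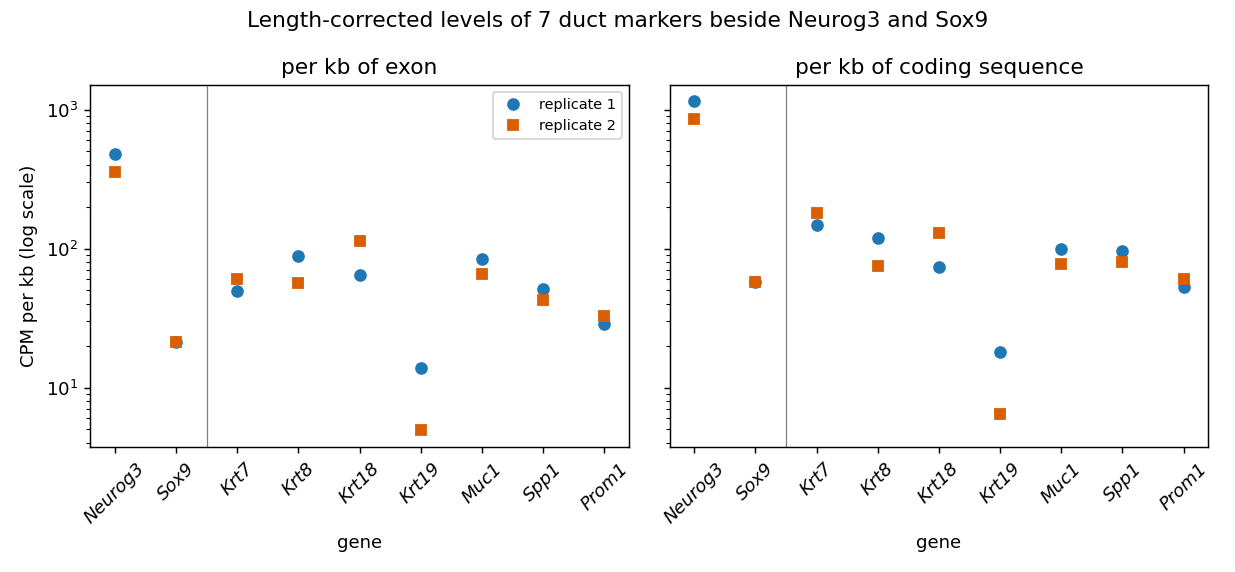
Levels of the 7 detected duct markers beside Neurog3 and Sox9, as CPM per kb of exon (left) and CPM per kb of coding sequence (right) on a log scale, with 1 point for each library. Neurog3 lies above all 7 markers in both panels and Krt19 lies below them, and Krt7 lies above the other 6 markers in the right panel but not in the left.

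Set beside 2 transcription factors of the lineage, 6 of the 7 detected markers lay above Sox9, which acts in the progenitor cords and ducts, and all 7 lay below Neurog3. Per kb of exon Neurog3 was at 478 and 358 CPM per kb in replicates 1 and 2, and Sox9 at 21.3 in each. The ratio to Neurog3 per kb was 0.186 and 0.158 for Krt8, 0.135 and 0.318 for Krt18, 0.104 and 0.168 for Krt7, 0.176 and 0.182 for Muc1, 0.107 and 0.119 for Spp1 and 0.0605 and 0.0913 for Prom1. The ratio for Muc1 was the closest between the libraries of these 6 and that for Krt18 the farthest apart. Krt8 was 4.17 and 2.66 times Sox9, Krt18 3.03 and 5.37 times and Krt7 2.33 and 2.83 times. Krt19 lay below Sox9 in both libraries. Per kb of coding sequence Prom1, at 53.0 and 60.01, no longer lay apart from Sox9, at 58.0 and 57.8. The labels do not say whether the reporter replaces a Neurog3 allele, which bears on each ratio to Neurog3.

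Within the keratin family, nearly all reads belonged to the 4 ductal keratins. The files hold 47 keratin genes, of which 26 are type I and 21 type II, and 27 of the 47 had no read in either library. The 4 ductal keratins took 97.9% of 6261 keratin reads in replicate 1 and 92.9% of 6880 in replicate 2. Krt7 held 40.5% and 43.2% of keratin reads, Krt8 34.6% and 19.5%, Krt18 18.5% and 28.8% and Krt19 4.36% and 1.37%. These shares are of reads and are not corrected for length.

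Only 7 keratin genes, or 14.9%, reached 1 CPM in both libraries, beside 45.7% of all genes in the files. Beside the 4 ductal genes these were Krt1, Krt10 and Krt83. Krt1 and Krt10 form the pair of the suprabasal epidermis: Krt1 was at 1.37 and 14.2 CPM in replicates 1 and 2, and Krt10 at 2.73 and 8.76 CPM. Krt83, a hair keratin, was at 1.93 and 3.39 CPM. A further 6 keratins are named here with their values already known. Krt15, a type I keratin of stratified epithelia, was at 0.965 and 8.93 CPM. Per kb of exon Krt19 was 24.5 times Krt15 in replicate 1 and 0.939 times in replicate 2, so the order of this pair differed between the libraries. Krt5, of the basal layer, had 19 reads in replicate 1 and 0 in replicate 2, Krt73 had 0 and 22 and Krt80 had 1 and 28. The basal keratin Krt14 had 1 read in all. Krt20, another keratin of simple epithelia, had 5 reads in replicate 1 and none in replicate 2.

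**Figure D3:**
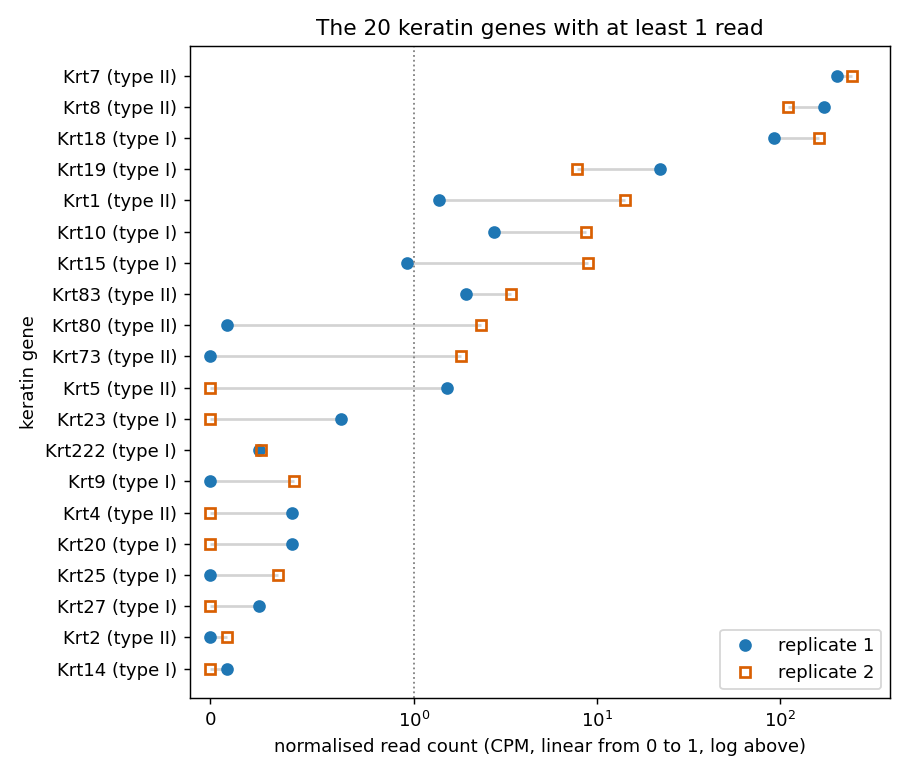
CPM of the 20 keratin genes with at least 1 read (axis linear from 0 to 1 and log above), with replicate 1 as filled circles, replicate 2 as open squares and the dotted line at 1 CPM. Krt7, Krt8 and Krt18 stand above 90 CPM in both libraries, and every other keratin lies below 22 CPM in both.

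Whether type II or type I chains were in excess depended on the library and on the length used. Per kb of exon, Krt7 and Krt8 together were 1.76 times Krt18 and Krt19 together in replicate 1 and 0.98 times in replicate 2, a mean of 1.37 ± 0.55 (SD, n = 2). The ratio thus lay above 1 in replicate 1 and just below it in replicate 2. Per kb of coding sequence it was 2.92 and 1.88, above 1 in both. With exon lengths from the full transcript set it was 1.54 and 0.773. The ratio in replicate 1 was thus above 1 on each scale, and in replicate 2 its direction rests on the length given to Krt7. Within type I and per kb of exon, Krt18 was 4.64 times Krt19 in replicate 1 and 23.1 times in replicate 2.

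The difference between the libraries was compared with counting error by a two-sided exact binomial test on each gene's reads, with Benjamini-Hochberg adjustment over 13416 genes with at least 10 reads. It compares these libraries, not conditions. Of the 8 duct markers tested, 8 had an adjusted p under 0.05, and so did 85.8% of all genes tested, so this count does not set the markers apart. Higher in replicate 2 were 4 of them, Krt7, Krt18, Prom1 and Car2, against 44.1% of all genes. Higher in replicate 1 were the other 4, Krt8, Krt19, Muc1 and Spp1, against 41.7%. A difference over 2-fold was also seen for 2 of the 8, Krt19 and Car2, against 47.8% of all genes. Cftr had too few reads to be tested.

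The log2 ratios of replicate 2 over replicate 1 were 0.82 for Krt18 (adjusted p = 4.75e-54 by the exact binomial test) and -0.65 for Krt8 (adjusted p = 3.36e-39 by the exact binomial test). They were 0.27 for Krt7, 0.18 for Prom1, -0.26 for Spp1, -0.37 for Muc1 and -1.48 for Krt19, with adjusted p by the exact binomial test from 5.32e-20 for Krt19 to 2.30e-04 for Prom1. The median size of the log2 ratio was 0.51 over the 8 markers and 0.95 over all genes tested. The markers are more abundant than most genes, and abundant genes differed less, so each was also set beside genes within 2-fold of its own mean CPM. Of 2927 such genes 27.6% differed at least as much as Krt18, and of 2724 genes 35.9% as much as Krt8. For Krt19 the share was 43.1% of 3653 genes, for Muc1 57.5% of 2391, for Krt7 63.7% of 1774, for Spp1 76.98% of 3806 and for Prom1 79.6% of 2608. Krt18, Krt8 and Krt19 thus differed more than most genes of their level, and Muc1, Krt7, Spp1 and Prom1 less. For Car2 it was 23.5% of 1377 genes, on a ratio that rests on 0 reads in replicate 1 and the prior count.

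**Figure D4:**
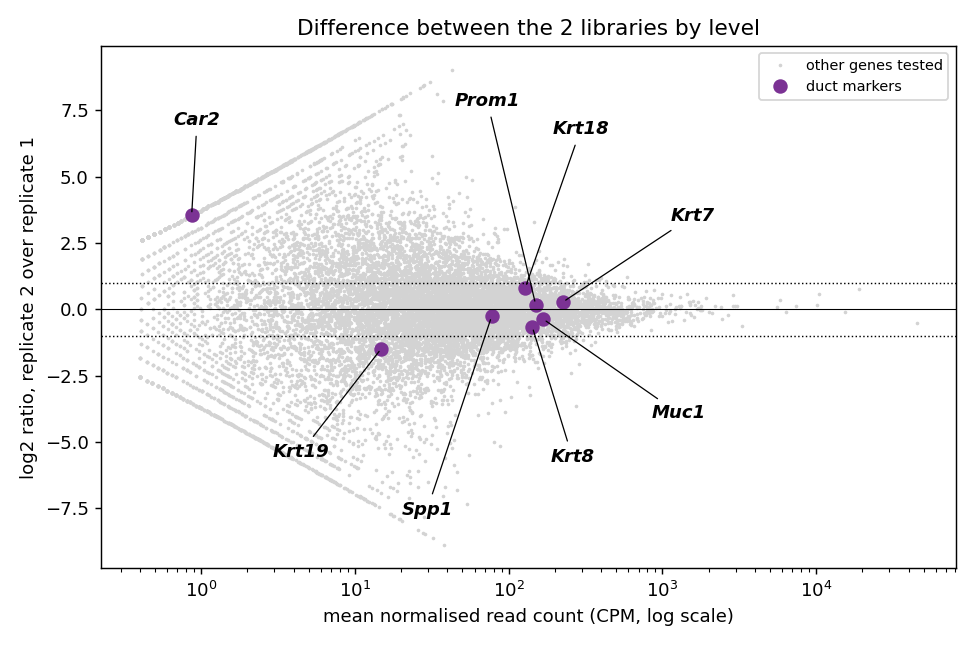
Log2 ratio of replicate 2 over replicate 1 against mean CPM (log scale) for the 13416 genes tested (grey), with the 8 duct markers tested in purple and dotted lines at 2-fold. Krt8 and Krt18 lie on opposite sides of 0 inside the dotted lines, and Krt19 and Car2 lie outside them; the ratio of Car2 rests on the prior count, since replicate 1 had no read.

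Other genes of the duct lineage were mostly detected as well. Of 23 such genes 16 reached 1 CPM in both libraries, beside 45.7% of all genes in the files. Ambp, a secreted plasma protein precursor, was at 514 and 217 CPM in replicates 1 and 2. The polycystin genes Pkd1 and Pkd2 were at 183 and 175 CPM and at 139 and 108 CPM, and the homeobox gene Hhex at 126 and 87.1 CPM. Between the libraries 9 of 17 tested were higher in replicate 1, 4 were higher in replicate 2 and 4 did not pass the binomial test (exact, adjusted over all genes). Of all genes tested 41.7% were higher in replicate 1, 44.1% were higher in replicate 2 and 85.8% passed. No read of Sctr, the secretin receptor, or of Tff2, a trefoil factor, was counted. Per kb of exon the median of this list was 3.43 and 2.19 CPM per kb, that of the 9 markers 49.7 and 42.8, and that of all genes with an exon length 0.465 and 0.646. Over the genes tested, which leave out those of few reads, the median was 7.13 and 7.35.

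Other transport genes were detected where Cftr and Car2 were at or near 0. Of 16 genes of ductal bicarbonate and fluid transport 10 reached 1 CPM in both libraries, beside 45.7% of all genes in the files. The bicarbonate cotransporter gene Slc4a4 was at 27.4 and 25.5 CPM, the anion exchanger gene Slc4a2 at 13.9 and 10.2 CPM, the chloride channel gene Ano1 at 15.3 and 14.96 CPM and the Na-K-Cl cotransporter gene Slc12a2 at 11.2 and 18.6 CPM. The kinase gene Wnk1 was at 645 and 882 CPM, the kinase gene Stk39 at 56.7 and 25.96 CPM and Ezr (ezrin, which links apical membrane to actin) at 94.9 and 81.3 CPM. The scaffold genes Slc9a3r1 and Pdzk1, whose proteins bind Cftr's tail, were at 38.8 and 20.2 CPM and at 9.97 and 25.1 CPM. No read was counted for Slc26a3, Slc9a3, Aqp5 or Kcnn4. Of 11 tested, 3 were higher in replicate 2, 5 higher in replicate 1 and 3 did not pass the binomial test (exact, adjusted over all genes), where 85.8% of all genes tested passed. By direction, 44.1% of all genes tested were higher in replicate 2 and 41.7% in replicate 1.

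The relatives of Car2 and Muc1 were mostly scarce, where 45.7% of all genes in the files reached 1 CPM in both libraries. Of 16 carbonic anhydrases 3 reached 1 CPM in both libraries: Car15, which is bound to the membrane, at 9.41 and 10.2 CPM, Car8, a family member without the catalytic activity, at 14.7 and 5.37 CPM, and Car11, another such member, at 2.09 and 1.74 CPM. Car10 had no read in replicate 1 and was at 30.2 CPM in replicate 2. Of 9 mucins measured 3 did: Muc1, Muc4, a membrane mucin, at 61.4 and 56.5 CPM, and Muc20 at 5.06 and 4.05 CPM. Muc6, a secreted mucin, was at 13.02 CPM in replicate 1 and had no read in replicate 2. Per kb of exon Muc1 was at 84.3 and 65.3 CPM per kb and Muc4 at 5.45 and 5.01.

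Genes whose proteins link keratins or bind osteopontin were counted next. Of 13 genes of desmosomes and keratin linkers 12 reached 1 CPM in both libraries, with Dst (dystonin) at 828 and 668 CPM, Pkp4 (a plakophilin) at 152 and 264 CPM, Jup (plakoglobin) at 106 and 124 CPM and Dsp (desmoplakin) at 127 and 87.1 CPM. Of the 12 tested 6 were higher in each library by the same exact test, against 44.1% of all genes in replicate 2 and 41.7% in replicate 1. Of 13 other intermediate filament genes 7 did, with Nefm (a neurofilament) at 108 and 177 CPM, Vim (vimentin) at 66.2 and 41.3 CPM, and the lamin genes Lmna and Lmnb1 at 32.0 and 37.9 CPM and at 17.4 and 38.9 CPM. Per kb of exon Krt8 was 2.95 and 2.999 times Vim in replicates 1 and 2, and Krt18 2.14 and 6.05 times. Of 13 osteopontin receptors and relatives 6 did, beside 45.7% of all genes. The integrin genes Itgb1, Itgav, Itga4 and Itga9 were at 249 and 173 CPM, 39.0 and 86.3 CPM, 52.1 and 66.7 CPM and 33.2 and 40.7 CPM. The relatives of Spp1 in mineralised tissue, Ibsp, Dmp1, Mepe and Dspp, had no read, nor had the integrin genes Itgb3 and Itga8.

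Keratins, Muc1, Spp1 and Prom1 are not made by ducts alone, so markers of other cells that the GFP gate could hold were counted. As background, 45.7% of all genes in the files reached 1 CPM in both libraries. Epithelial markers reached 1 CPM in both libraries for 9 of 9 genes, with Cdh1 (E-cadherin) at 761 and 612 CPM. Endocrine markers did for 10 of 10, and summed to 36832 and 52371 CPM. The hormone genes in that sum were Gcg at 14058.5 and 24069.5 CPM, Ins1 at 8377 and 12399 CPM and Ins2 at 5104 and 6461 CPM. The median of the endocrine list was 882 CPM in replicate 1 and 781 CPM in replicate 2. Acinar markers reached 1 CPM in both libraries for 6 of 10, with summed levels of 1748 and 1310 CPM, and the lipase gene Pnlip had no read. Mesothelium, a covering layer that also makes simple keratins, had 1 of 5 markers, Msln, at 4.66 and 13.6 CPM, with summed levels of 21.1 and 18.4 CPM. Single mesothelial genes differed in opposite directions, with Lrrn4 at 14.1 and 0.0827 CPM and Upk3b at 0.0804 and 3.80 CPM. By the same exact test 3 of the 5 were higher in replicate 2 and 2 in replicate 1, against 44.1% and 41.7% of all genes tested. All 5 differed over 2-fold, against 47.8% of all genes tested. Scarce genes differed over 2-fold more often. Among genes within 2-fold of the mean CPM of each, the share was 63.6% for Msln, 67.2% for Lrrn4 and 79.3% for Upk3b. Mesenchymal markers reached 1 CPM in both libraries for 4 of 7, with summed levels of 355 and 96.6 CPM. They were higher in replicate 1 for 7 of 7 genes by the same exact test, adjusted over all genes, against 41.7% of all genes tested. Krt8, Krt19, Muc1 and Spp1 were also higher in replicate 1, and the part of these cells in that difference was not tested.

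Markers of blood vessels, blood cells and neighbouring organs were counted as well, against the same 45.7% of all genes. Endothelial markers reached 1 CPM in both libraries for 0 of 5 genes, with summed levels of 15.8 and 0.909 CPM, immune markers for 2 of 5 with 56.8 and 11.7 CPM, of which Laptm5 made up 37.9 and 3.55 CPM, and gut epithelium markers for 1 of 4 with 61.7 and 43.1 CPM, nearly all from Vil1 (villin). Of the liver markers Alb had no read, Afp was at 3.54 and 3.31 CPM, and Ttr, which islet cells also make, was at 1667 and 1673 CPM. The part of any of these cells in the levels of the duct markers was not tested.

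**Figure D5:**
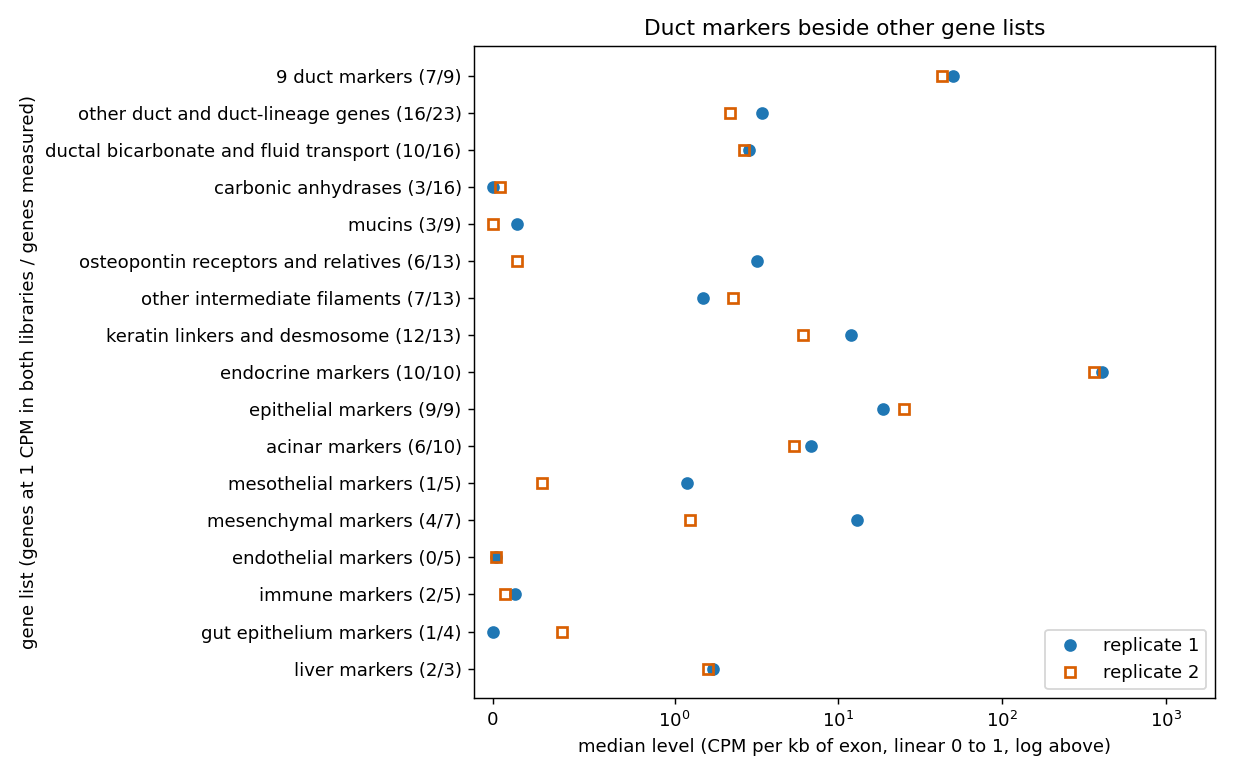
Median level (CPM per kb of exon, axis linear from 0 to 1 and log above) of the 9 duct markers and of each comparison list, with replicate 1 as filled circles and replicate 2 as open squares; brackets give the genes at 1 CPM in both libraries out of those measured. The duct markers lie at 49.7 and 42.8 CPM per kb, below the endocrine markers at 405 and 362.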

How the data were processed

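Each sample's file holds the deposited raw read counts of 23284 gene symbols. The tools listed in the submitters' processing notes include TopHat2 2.0.4 and DESeq, with no role given, and the build is mm9. How reads were counted, on which annotation and strand, and what was done with reads of several matches is not given in the sources used here. Counts were scaled to CPM with TMM factors of 0.9956 and 1.0044 from edgeR 4.0.16 (R 4.3.3). Values are given per library or as mean ± SD. Intervals are exact Clopper-Pearson intervals at 95% and, like the limit of 3 counts for a count of 0 (0.241 and 0.248 CPM), leave out all but counting error, as PCR copies of a molecule cannot be told from separate molecules. Log2 ratios used a prior count of 2. The binomial test (SciPy 1.17.1) took the scaled library sizes as given and was tested on simulated counts with counting error only. That setting matches the test's own assumption and leaves out the wider spread between these libraries. Exon and coding lengths and 25-base words came from GENCODE M21 (GRCm38), basic set, with 97.9% of symbols matched, some through older symbols. Words were searched on both strands.

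The 9 genes, the 16 comparison lists and the tests were chosen with earlier results of these data known. Named were the 9 genes, Neurog3, Sox9, each keratin at 1 CPM in both libraries, up to 4 genes of highest mean CPM in each list, and each transport, carbonic anhydrase and mucin gene at 1 CPM in both. A gene that meets this rule is not reported here. Muc2, Muc3 and Muc16 were not analysed here. Alternatives covered scaling (column totals, DESeq2 1.42.0 size factors, totals without Rn45s or the 10 most abundant genes), detection limits, filters, prior count, gene length and each replicate left out.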

Additional observations from a re-analysis of the deposited data

How the results depend on the processing

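No paired analysis was possible because the series holds 1 group. The 7 of 9 markers detected stayed at 7 or 8 under each scaling, each detection limit and without either replicate, and the log2 ratios of the 8 markers tested kept their direction and their side of the threshold in 55 of 55 alternatives. Among these alternatives the read filters left the ratios unchanged, and the prior count left the adjusted p unchanged. All 55 used the same libraries, so they do not cover the spread between replicates. With no filter on low counts Cftr was tested too and 9 markers differed, beside 11543 of 23284 genes, a total that includes genes with no read. With the filter kept and a 2-fold difference also required 2 markers did, against 47.8% of all genes tested. The median level of the markers, taken in each library and averaged over both, was 102 CPM. It was 117 with the 10 most abundant genes left out of the totals, 46.3 per kb of exon and 74.3 per kb of coding sequence. The ratio of type II to type I keratins, 1.37, was 2.68 with no length correction and 2.40 per kb of coding sequence, an alternative added after the data were seen; it was 1.16 with the full transcript set and 0.98 to 1.76 without either replicate. The share of keratin reads in the 4 ductal genes was 92.9% to 97.9% without either replicate. At 5 CPM the keratin genes detected were 4 and not 7, the mesothelial markers 0 and not 1, the immune markers 1 and not 2 and the liver markers 1 and not 2. Leaving out each replicate gave 3 to 5 carbonic anhydrases (3 with both), 2 to 3 mesothelial (1), 4 to 7 mesenchymal (4), 0 to 1 endothelial (0) and 1 to 2 gut markers (1). The counts of 0 for Cftr and Car2 in replicate 1 allow up to 0.241 CPM by counting error alone, which leaves out the wider spread between the libraries.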
